A study of Mus musculus with 4 samples.

Results

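The cartilage matrix genes *Col2a1*, *Col9a1*, *Col9a2*, *Col9a3*, *Col10a1*, *Col11a1*, *Col11a2*, *Acan*, *Matn1* and *Matn3* were chosen by symbol, and each matched 1 of the 53703 features counted. They were read in 4 libraries of droplet-based single-cell RNA-seq, made from stromal cells of the mouse femur and tibia metaphysis at 12 weeks of age. The 2 mutant libraries came from *Lats2*iΔEC mice, which carry loxP-flanked *Lats2* alleles and the *Cdh5*(PAC)-CreERT2 transgene, a Cre recombinase under an endothelial promoter that tamoxifen activates. The 2 control libraries came from Cre-negative littermates, and mice of both genotypes received tamoxifen for 5 days at the age of 4 to 5 weeks. GEO's labels call the controls untreated. The mice were of both sexes on a C57/BL6 background, and the endothelial reporter *Cdh5*(PAC)-mT/nG was bred into both genotypes. The Cre line targets endothelial cells (ECs), and chondrocytes (CHOs) are not its target. Whether a library pooled several animals is not given in the sources used here, and p-values therefore measure only the spread between these libraries. For 2 mutants and 2 controls the smallest p of an exact permutation test is 0.333.

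Cartilage resists load because a network of collagen fibrils holds large, strongly hydrated proteoglycan aggregates. Type II collagen (*Col2a1*) is the main fibril former, type XI collagen (*Col11a1*, *Col11a2* and a *Col2a1* product) lies in the fibril core and limits its width, and type IX collagen (*Col9a1*, *Col9a2*, *Col9a3*) sits on the fibril surface. Aggrecan (*Acan*) is the large proteoglycan that binds water, and matrilins (*Matn1*, *Matn3*) are adaptor proteins that link fibrils and proteoglycans. In the growth plate, resting CHOs give rise to columns of flat proliferating cells, which become prehypertrophic and then hypertrophic. Type X collagen (*Col10a1*) is the hallmark of the hypertrophic zone, whose matrix is mineralized and resorbed as bone forms.

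CHOs were gated per cell on 10 markers that hold no member: *Cytl1*, *Snorc*, *Scrg1*, *Susd5*, *Cnmd*, *Chad*, *Fgfr3*, *Hapln1*, *Sox9* and *Wwp2*. All 10 stood at 10 CPM (UMIs per 1000000 UMIs of the gate) or more in the summed CHOs of every library. Of 24599 cells kept, 8000 were CHOs, 2236 and 2477 in the mutants and 1605 and 1682 in the controls, with medians of 11300 to 13016 UMIs per cell. Libraries held 69636600 to 85899079 UMIs, of which 6.08% to 7.77% lay in barcodes under 100 UMIs. Pairs of libraries shared 6 to 16 barcodes of kept cells. Summed markers of ECs stood at 15.7 to 22.2 CPM in CHOs, and those of osteoblasts (OBs) at 1144 and 1099.5 CPM in the mutants and 1942 and 1965 CPM in the controls. The targeted gene, *Lats2*, stood at 93.0 and 95.6 CPM in mutant ECs and at 132 and 117 CPM in control ECs, a log2 fold change of −0.34 (SE 0.0845, edgeR, Benjamini-Hochberg adjusted p = 0.00145). Reads over the whole gene were counted, so transcripts that lack the deleted exons count too. In CHOs its log2 fold change was 0.03 (edgeR adjusted p = 0.729), and in columnar CHOs it was −0.39 (edgeR adjusted p = 0.0292).

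Zones within CHOs were gated on further markers that hold no member. These were *Prg4*, *Cilp*, *Angptl7* and *Abi3bp* for CHOs named superficial here. *Msmp*, *Myoc*, *Casr* and *Chrdl2* gave a set named here by *Msmp*, and *Sfrp5*, *Notum* and *Chil1* gave resting CHOs. Columnar CHOs were gated on *Epyc*, *Prkg2* and 4 *Serpina1* genes, prehypertrophic CHOs on *Ihh*, *Panx3*, *Pth1r* and *Mef2c*, and hypertrophic CHOs on *Mmp13*, *Ibsp*, *Vegfa*, *Ptgs2*, *Pde11a* and *Loxl4*. The authors named zones otherwise, with *Sfrp5* as a marker of columnar CHOs and *Ihh* as one of early hypertrophic CHOs. Their prehypertrophic CHOs were negative for *Ihh*. They used *Prg4* with *Acan* and without *Slurp1* for CHO progenitors, and *Prg4* with *Slurp1* among the markers of fibroblasts. A zone cut from a score is a range and not a type. Between 147 and 478 cells lay within 10% of each zone's cut-off. Hypertrophic CHOs made up 26.5% and 25.1% of CHOs in the mutants and 5.48% and 4.82% in the controls. Columnar CHOs made up 11.7% and 10.0% in the mutants and 29.3% and 29.9% in the controls. Prehypertrophic CHOs made up 12.7% and 11.6% against 18.6% and 17.2%. Since the collection, digestion and depletion of the cells also set these shares, they are given here only as the weights behind the levels of the matrix genes.

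The hypertrophic gate did not collect like cells from both genotypes. Of the mutant hypertrophic CHOs, 74.7% and 72.5% fell in expression cluster 2, which held 776 and 814 mutant cells and 3 and 4 control cells in all. Control hypertrophic CHOs lay mainly in cluster 8 (51.1% and 37.0%) and cluster 3 (up to 27.2%). The mutant hypertrophic CHOs had median mitochondrial shares of 0.688% and 1.08%, against 4.48% and 4.51% in the controls and between 3.21% and 5.65% in the other 5 zones of all libraries. Among the gate genes, *Vegfa*, a vascular growth factor, stood at 631 and 569 CPM in mutant against 173 and 194 CPM in control hypertrophic CHOs, and *Ibsp*, bone sialoprotein, at 9046 and 10565 against 24433 and 20424 CPM. The part of these differences in the results for hypertrophic CHOs was not tested. Columnar CHOs lay mainly in cluster 6 in the mutants (55.7% and 58.5%) and in cluster 7 in the controls (74.9% and 74.6%). Prehypertrophic CHOs lay mainly in cluster 8 in the controls (79.5% and 82.7%) and in clusters 8 and 2 in the mutants (39.6% and 36.8%, and 38.2% and 39.6%).

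The members lie on 9 chromosomes of GRCm39 (GENCODE M39). *Col2a1* (ENSMUSG00000022483) is at chr15:97873483-97902689 on the minus strand, and the other 9 genes are on the plus strand. *Col11a1* (ENSMUSG00000027966) spans chr3:113824134-114014367 and *Col11a2* (ENSMUSG00000024330) chr17:34258108-34285664. *Col9a1* (ENSMUSG00000026147) is at chr1:24216691-24291765, *Col9a2* (ENSMUSG00000028626) at chr4:120896582-120912523 and *Col9a3* (ENSMUSG00000027570) at chr2:180239583-180264063. *Acan* (ENSMUSG00000030607) is at chr7:78702964-78764847, *Matn1* (ENSMUSG00000040533) at chr4:130670216-130682787 and *Matn3* (ENSMUSG00000020583) at chr12:8997929-9022028. *Col10a1* (ENSMUSG00000039462) is at chr10:34265971-34273081. Reads over exons and introns were counted with regard to strand.

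The 250 bases before the start are shown, from RefSeq on GRCm38.p6, for *Col10a1*, the member called higher in mutant resting, columnar and prehypertrophic CHOs while others were called lower, and for *Acan* and *Matn3*, a pair of members that were lower in mutant columnar CHOs. Capitals mark a TATA box, with the letters TATAAA or on the other strand TTTATA, and a GC box, with the letters GGGCGG or on the other strand CCGCCC.
*Col10a1*, chr10:34389731-34389980, plus strand: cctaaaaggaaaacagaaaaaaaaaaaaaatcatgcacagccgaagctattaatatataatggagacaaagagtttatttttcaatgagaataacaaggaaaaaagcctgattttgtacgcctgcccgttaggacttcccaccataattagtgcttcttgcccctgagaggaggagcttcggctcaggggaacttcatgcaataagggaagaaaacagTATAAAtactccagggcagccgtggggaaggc
*Acan*, chr7:79052976-79053225, plus strand: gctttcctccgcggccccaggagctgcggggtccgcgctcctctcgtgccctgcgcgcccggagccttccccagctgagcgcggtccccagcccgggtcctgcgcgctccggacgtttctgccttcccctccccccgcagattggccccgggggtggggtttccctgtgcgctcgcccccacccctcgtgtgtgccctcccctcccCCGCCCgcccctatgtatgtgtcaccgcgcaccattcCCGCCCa
*Matn3*, chr12:8947679-8947928, plus strand: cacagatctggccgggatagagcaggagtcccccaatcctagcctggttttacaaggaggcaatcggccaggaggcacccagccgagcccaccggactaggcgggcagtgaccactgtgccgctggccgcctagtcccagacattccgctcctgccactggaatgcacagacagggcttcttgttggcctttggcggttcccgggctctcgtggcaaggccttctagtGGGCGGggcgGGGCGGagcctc
The *Col10a1* window holds a TATAAA that begins 32 bases before the start and no GC box, and 41.6% of its bases are G or C. The *Acan* window is 74.4% G or C, with GC boxes beginning 44 and 7 bases before the start, and the *Matn3* window is 65.2% G or C with GC boxes at 22 and 12 bases. Of 32851 mouse windows of this length, 12.4% hold TATAAA and 32.7% hold a GC box. RefSeq entries were at hand for 8 of the 10 members, and of these *Col11a2* alone also held a TATAAA, 143 bases before the start. A match is a description of letters and not a site at which a factor was measured.

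Across the zones, the fibrillar and fibril-associated collagens shared a peak in prehypertrophic or columnar CHOs, and *Col10a1* stood highest in hypertrophic CHOs. *Col2a1* stood at 33854 and 32919 CPM in the mutants and 47129.8 and 51526 CPM in the controls in prehypertrophic CHOs, and at 26180.0 and 26904 CPM in the mutants and 33327 and 32393 CPM in the controls in columnar CHOs. In hypertrophic CHOs it stood at 19631 and 21212 CPM in the mutants and 22218 and 22228 CPM in the controls, in resting CHOs at 12805 and 14659 CPM in the mutants and 16681 and 19494 CPM in the controls and in superficial CHOs at 4311 and 6311 CPM in the mutants and 3606 and 3770.1 CPM in the controls. Its level was lower in superficial and resting than in columnar CHOs in all 4 libraries. *Col11a1* ran from 1216 and 1308 CPM in the mutants and 1028 and 1245 CPM in the controls in superficial CHOs to 5317 and 5359 CPM in the mutants and 8387 and 8369 CPM in the controls in prehypertrophic CHOs.

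In the test over library-by-zone sums with the library as a block, 9 of the 10 members were called lower in superficial than in columnar CHOs, where 58.5% of 8109 genes were called in either direction and 28.2% as lower. The log2 differences ran from −1.31 for *Acan* to −5.30 for *Matn3*. *Col10a1*, the member not called there, had a log2 difference of −0.19. In resting against columnar CHOs all 10 members were called lower (30.5% of genes called, 13.5% lower), by log2 values between −0.59 for *Col11a1* and −2.87 for *Matn1*. In *Msmp*-gated against columnar CHOs all 10 were called lower as well (41.4% of genes called, 19.9% lower). Prehypertrophic CHOs exceeded columnar CHOs in 4 members (26.4% of genes called, 13.2% higher): *Col10a1* (3.66), *Matn1* (2.19), *Col9a1* (0.57) and *Col11a1* (0.57), edgeR adjusted p 0.000166, 9.44e-05, 0.0417 and 0.0189. This count fell to 2 without mutant 1, mutant 2 or control 2.

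From prehypertrophic to hypertrophic CHOs, 8 members were called lower (27.9% of genes called, 13.3% lower), and these are the collagens II, IX and XI, *Acan* and *Matn3*. The collagen IX genes and *Matn3* fell furthest, by 2.16 for *Matn3*, 2.11 for *Col9a1*, 1.95 for *Col9a2* and 1.92 for *Col9a3* on the log2 scale (SE 0.192 to 0.288). *Col10a1* had a log2 difference of 1.17 (edgeR adjusted p = 0.134) and *Matn1* one of −0.69 (edgeR adjusted p = 0.149). Among cells past a single zone cut-off, 1 member was called higher and 8 lower (24.2% of genes called, 13.6% higher, 10.6% lower). *Col10a1* was higher there in hypertrophic CHOs in all 4 libraries, at 10537 and 10512 CPM in the mutants and 1541 and 3564 CPM in the controls. In prehypertrophic CHOs it stood at 2763 and 2994 CPM in the mutants and 680 and 313 CPM in the controls. Against columnar CHOs, hypertrophic CHOs were called higher in *Col10a1* (4.84) and *Matn1* (1.51) and lower in the 6 genes of collagens IX and XI and *Matn3* (43.1% of genes called, 20.3% lower). *Acan* (−0.29) and *Col2a1* (−0.39) were not called. The rise of *Matn1* became a difference of −1.32 among cells past a single zone cut-off.

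**Figure D1:**
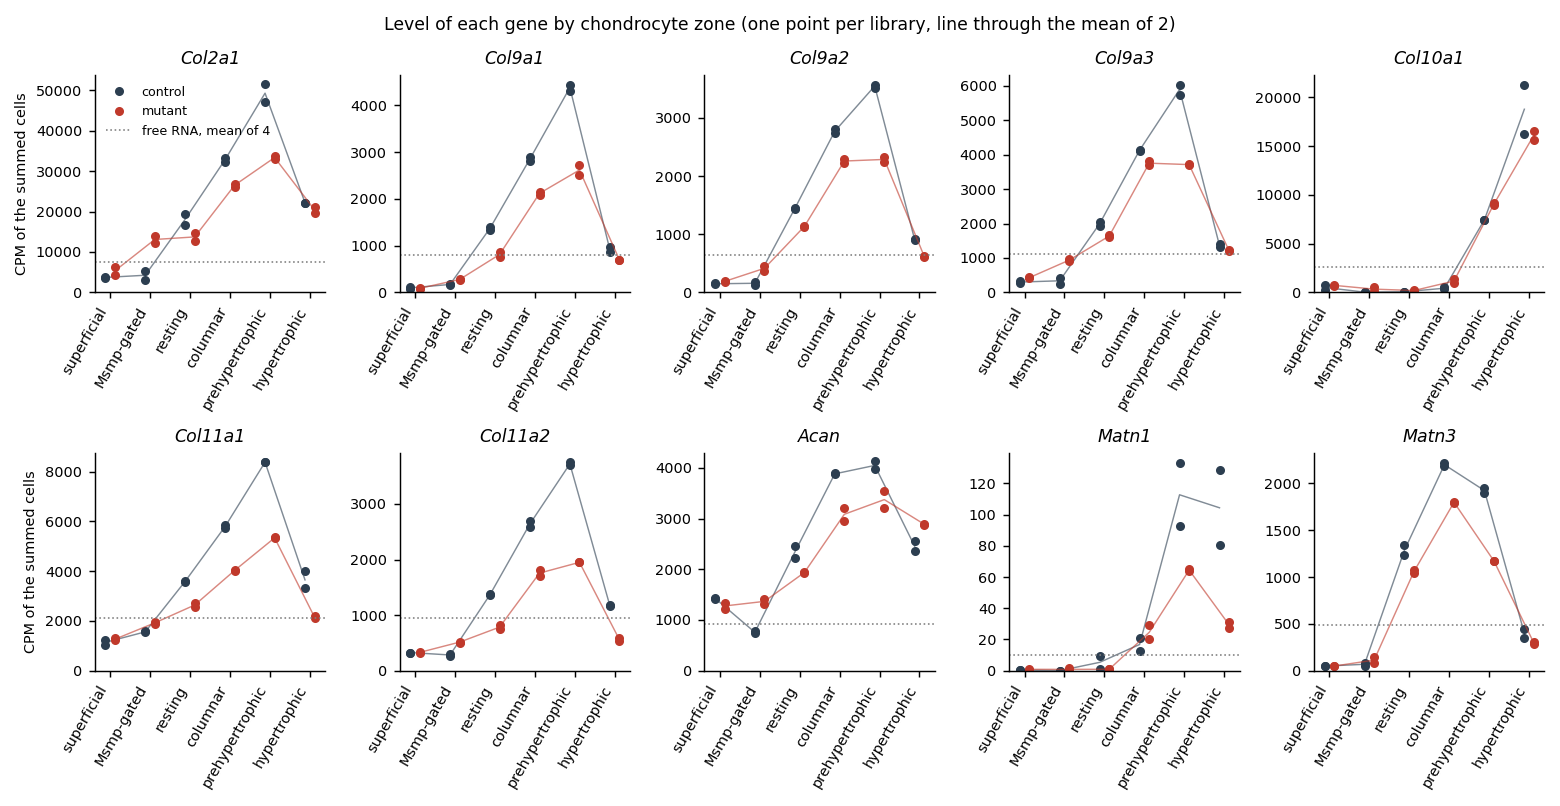
Level of each member in each zone, in CPM on a linear axis. Each of the 2 mutant (red) and 2 control (dark) libraries has 1 point, and a line runs through the means. A dotted line marks the mean level in barcodes under 100 UMIs. Most members peak in columnar or prehypertrophic CHOs, and *Matn1* stays under 2 CPM in superficial and *Msmp*-gated CHOs. *Col10a1* stands highest in hypertrophic CHOs (15668 to 21272 CPM), but its difference from prehypertrophic CHOs was not called over the whole gates drawn here.

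Over the 24 sums of library by zone, *Col9a2* and *Col9a3* had the most similar profiles of any pair of members (Pearson's r of log2 CPM 0.993). *Col10a1* had r between 0.27 (with *Matn3*) and 0.64 (with *Acan*) to the other members apart from *Matn1* (0.83). These correlations describe sums that share libraries and zones. Outside the members, *Lxn* (0.958), *Tmie* (0.958) and *Prdm6* (0.953) had the profiles most like *Col2a1* among 12538 genes. *Pdcd10* (0.946), *Map1lc3b* (0.935) and *Gm37534* (0.930) were most like *Col10a1*, and *Mypn* (0.961), *Rnf144a* (0.960) and *Bmp8a* (0.956) most like *Matn1*.

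Over all CHOs, the mutants had less mRNA of collagens II, IX and XI, *Acan* and *Matn3* and more of *Col10a1*. The 10 genes held 3.75% and 3.68% of all UMIs of mutant CHOs and 5.27% and 5.24% of those of control CHOs. In bulk sums of this kind, fewer cells of a zone and less RNA per cell cannot be told apart. *Col2a1* stood at 19964 and 20171 CPM in the mutants and 29242 and 29565 CPM in the controls, a log2 fold change of −0.47 (SE 0.0498, edgeR, Benjamini-Hochberg adjusted p = 1.51e-07). For this gene, and for the other 8 members apart from *Col10a1*, both mutants were under both controls.

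The partner chains of the fibril core fell more in value than *Col2a1*. *Col11a1* stood at 3017 and 2997 CPM in the mutants and 5319.6 and 5178 CPM in the controls (log2 fold change −0.72, SE 0.0481). *Col11a2* stood at 1019 and 1007 CPM in the mutants and 2271 and 2204 CPM in the controls (log2 fold change −1.06, SE 0.0478), the lowest fold change of the members tested. All 3 chains of collagen IX fell. *Col9a1* stood at 1232 and 1137 CPM in the mutants and 2456 and 2409 CPM in the controls (log2 fold change −0.95), *Col9a2* at 1251 and 1153 CPM in the mutants and 2217 and 2184 CPM in the controls (−0.79) and *Col9a3* at 2123 and 1939.7 CPM in the mutants and 3423 and 3453 CPM in the controls (−0.67). Differences between members in the size of the fall were not tested.

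*Acan*, the core protein of the main proteoglycan, had the smallest fall, from 3151 and 3124 CPM in the controls to 2432 and 2457 CPM in the mutants (log2 fold change −0.28, SE 0.0474, edgeR adjusted p = 5.59e-05). *Matn3* stood at 841 and 815 CPM in the mutants and 1534 and 1533 CPM in the controls (log2 fold change −0.80, SE 0.0479). *Matn1* was counted in too few cells for the detection filter and stood at 21.3 and 19.5 CPM in the mutants and 37.9 and 39.2 CPM in the controls. A fit without the filter gave *Matn1* a log2 fold change of −0.87 (edgeR adjusted p = 2.15e-04). *Col10a1* was the single member that rose, at 5556 and 5081 CPM in the mutants and 3034 and 2702 CPM in the controls, a log2 fold change of 0.98 (SE 0.0588, edgeR adjusted p = 4.32e-11). Thus 9 of 9 tested members were called, 8 of them lower, beside 62.3% of 6564 genes called in this gate, 31% of the tested genes lower in mutants. The median log2 fold change was −0.72 over the members tested and −0.01 over all genes tested. Of the 10 CHO gate markers, 8 were called lower and 1 higher in all CHOs (median −0.21), and 5 lower and 2 higher in prehypertrophic CHOs (median −0.17).

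Part of the difference between genotypes in all CHOs goes with the zone weights, and the size of that part was computed for each member. Each library's zone levels were averaged with 1 set of weights, the mean share of CHO UMIs in each zone over the 4 libraries. The log2 ratio of *Col10a1* was then 0.07, against 0.89 with the zones as found. This value rests on the hypertrophic gate with its mixed cells, and among cells past a single zone cut-off *Col10a1* was higher in both mutants than in both controls in the columnar, prehypertrophic and hypertrophic zones. The ratio of *Col2a1* was −0.37 against −0.55, that of *Col9a1* −0.65 against −1.04, that of *Col11a2* −0.80 against −1.14 and that of *Matn3* −0.47 against −0.89. Every member other than *Col10a1* stayed lower in the mutants with fixed weights, from −0.22 (*Acan*) to −0.88 (*Matn1*). All of these ratios rest on the same gates, and fixed weights do not fix the mix of cells inside a gate. These ratios are descriptions with no test.

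**Figure D2:**
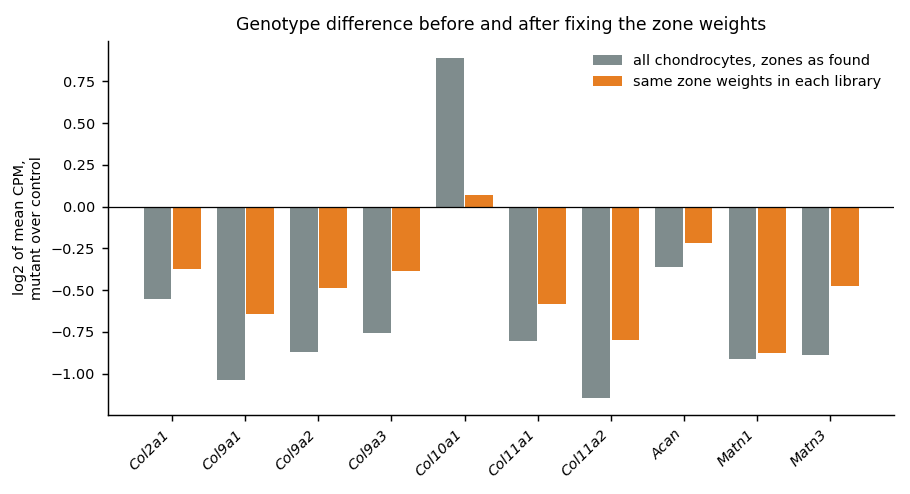
Log2 of the mean CPM of the 2 mutant libraries over that of the 2 control libraries for each member, with the zones as found (grey) and with the same zone weights in each library (orange). The bar of *Col10a1* falls from 0.89 to 0.07, and those of the other 9 members stay below 0.

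Within columnar CHOs, where proliferating cells form stacks, 8 of 9 tested members were called (35.2% of genes called, 16.5% lower), 7 of them lower and *Col10a1* higher. *Col10a1* stood at 1366 and 957 CPM in the mutants and 513 and 329 CPM in the controls (log2 fold change 1.57, SE 0.185, edgeR adjusted p = 7.06e-05). The median columnar cell of the mutants held 49.3 and 42.9 CPM of *Col10a1*, less than the 64.2 and 62.5 CPM in the summed ECs of the same libraries, and no difference is read from it. In all, 4.58% and 3.23% of mutant and 0.849% and 0.795% of control columnar CHOs held more *Col10a1* than *Col2a1*. Over the whole gate the called falls lay between −0.19 for *Matn3* and −0.49 for *Col11a2*. With no test, each tested member other than *Col10a1* was lower in both mutants in all cells of cluster 6 and of cluster 7. *Col11a2* stood at 1699 and 1813 CPM in the mutants and 2691 and 2592 CPM in the controls, and *Col11a1* at 4022 and 4036 CPM in the mutants and 5849 and 5737 CPM in the controls. For *Col9a3* the levels were 3808 and 3698 CPM in the mutants and 4116 and 4140.4 CPM in the controls (log2 fold change −0.04, edgeR adjusted p = 0.447). In cluster 6 *Col9a3* stood at 3355 and 3183 CPM in the mutants and 3850 and 3748 CPM in the controls. In cluster 7 it stood at 3558 and 4052 against 4318 and 4421 CPM. *Matn3* stood at 1458 and 1504 against 2238 and 2108 CPM in cluster 6. In cluster 7 *Matn3* stood at 1453 and 1755 against 2130 and 2183 CPM. The part of the mix of clusters in the values of the gate was not tested. In columnar CHOs the summed fibroblast markers stood at 2093 and 1973 CPM in the mutants and 1364 and 1346 CPM in the controls, and mural markers at 194 and 236 CPM against 308 and 307 CPM, and their part was not tested. The count was 8 with each library left out in turn.

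Within resting CHOs, the reserve cells of the growth plate, 6 of 9 tested members were called (14.3% of genes called, 6.01% lower). *Col10a1* was higher, at 238 and 133 CPM in the mutants and 54.2 and 65.6 CPM in the controls (log2 fold change 1.70, SE 0.201), a call that was lost once free RNA was subtracted (edgeR adjusted p = 0.0738). *Col2a1* (−0.31), *Col9a1* (−0.68), *Col9a2* (−0.26), *Col11a1* (−0.36) and *Col11a2* (−0.72) were lower on the log2 scale. OB markers moved with these falls, at a summed 174 and 221 CPM in the mutants and 595 and 505 CPM in the controls in resting CHOs, and their part was not tested. The gate also held different clusters, since 23.7% and 14.5% of control resting CHOs lay in cluster 7 and under 10% in cluster 3, and 11.4% and 14.0% of mutant ones in cluster 3 and under 10% in cluster 7. In all cells of cluster 13, which held 41.7% to 56.2% of the resting CHOs of each library, *Col2a1* was not lower in the mutants, at 13790 and 14448 CPM against 10853 and 10401 CPM in the controls. *Col9a3* (1626 and 1526 against 1271 and 1126 CPM) and *Matn3* (938 and 1002 against 736 and 768 CPM) were higher in both mutants there as well, with no test. *Col9a1* (657 and 705 against 923 and 765 CPM) and *Col11a2* (715 and 730 against 957 and 938 CPM) were lower in both mutants there. *Col9a2* was higher in both mutants there, and for *Col11a1* the groups overlapped. In the whole gate *Col9a3* and *Matn3* had log2 fold changes of −0.20 and −0.20 and *Acan* one of −0.19, none of them called. The count of calls fell to 3 without mutant 1 and to 0 without the filter on low counts, where *Col10a1* kept a log2 fold change of 1.71 (edgeR adjusted p = 0.235).

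Prehypertrophic CHOs, which secrete Indian hedgehog (*Ihh*), had 9 of 10 members called (35.1% of genes called, 16.5% lower), 8 lower and *Col10a1* higher. *Col2a1* stood at 33854 and 32919 CPM in the mutants and 47129.8 and 51526 CPM in the controls (log2 fold change −0.48, SE 0.0883, edgeR adjusted p = 0.000512). *Col11a2* stood at 1948 and 1951 CPM in the mutants and 3695 and 3747 CPM in the controls (−0.85, SE 0.0701) and *Col9a1* at 2719 and 2516 CPM in the mutants and 4318 and 4442 CPM in the controls (−0.66, SE 0.0752). *Matn3* stood at 1167 and 1175 CPM in the mutants and 1896 and 1954 CPM in the controls (−0.64) and *Matn1* at 64.9 and 64.0 CPM in the mutants and 92.5 and 133 CPM in the controls (−0.73). In each of these 5 genes both mutants lay below both controls. Summed OB markers stood in these cells at 3567 and 2998 CPM in the mutants and 4153 and 4249 CPM in the controls. Median mitochondrial shares were 3.43% and 3.21% in the mutants and 4.16% and 4.37% in the controls. The part of either in these falls was not tested.

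*Col10a1* stood at 9144 and 8976 CPM in the mutants and 7464 and 7396 CPM in the controls in prehypertrophic CHOs (log2 fold change 0.37, SE 0.0736, edgeR adjusted p = 0.00108). In all cells of cluster 8, the main cluster of control prehypertrophic CHOs, *Col10a1* was lower in both mutants, with no test. It stood there at 9132 and 8730 CPM in the mutants and 11208 and 9654 CPM in the controls. *Acan* had a log2 fold change of −0.18 (edgeR adjusted p = 0.0712) and was not called, although both mutants lay below both controls. Without mutant 1, the adjusted p of *Col10a1* was 0.125 and that of *Col2a1* 0.147, and without mutant 2 they were 0.0585 and 0.161 (edgeR). Without the filter on low counts 6 members were called. Many prehypertrophic CHOs also passed the cut-off of another zone. In cells past the prehypertrophic cut-off alone, an alternative chosen after the data were seen, *Col10a1* stood at 2763 and 2994 CPM in the mutants and 680 and 313 CPM in the controls.

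The hypertrophic gate, named for the terminal cells before bone forms, gave 7 calls of 10 members (37.6% of genes called, 18.3% lower), 6 lower and *Acan* higher. *Matn1* fell furthest, at 31.2 and 27.6 CPM in the mutants and 129 and 80.3 CPM in the controls (log2 fold change −1.79, SE 0.196, edgeR adjusted p = 4.51e-05). It passed the detection filter through the control cells alone, where it was higher. Without that filter its log2 fold change was −1.67 (edgeR adjusted p = 0.00546). Among cells past the hypertrophic cut-off alone, *Matn1* stood at 4.11 and 7.67 CPM in the mutants and 0 and 5.48 CPM in the controls, and this fall was not seen. *Col11a2* stood at 534 and 582 CPM in the mutants and 1165 and 1177 CPM in the controls (−1.02, SE 0.103) and *Col11a1* at 2099 and 2192 CPM in the mutants and 3986 and 3310.4 CPM in the controls (−0.72, SE 0.109). *Col9a1* (−0.35), *Col9a2* (−0.51) and *Matn3* (−0.40) were called lower as well. In hypertrophic CHOs the summed OB markers stood at 971 and 892 CPM in the mutants and 1980 and 1900.4 CPM in the controls, and those of bone marrow stromal cells at 249 and 431 CPM against 753 and 879 CPM, and their part in the falls of *Col11a1* and *Col11a2*, which OBs hold as well, was not tested. In those cells past the hypertrophic cut-off alone, *Col9a1* stood at 509 and 507 CPM in the mutants and 368 and 463 CPM in the controls, and the log2 fold changes turned to 0.32 for *Col9a1*, 0.23 for *Col9a2* and 0.55 for *Col9a3*, while that of *Matn3* was −0.04. *Acan* stood at 2881 and 2894 CPM in the mutants and 2551 and 2359.7 CPM in the controls (log2 fold change 0.28, SE 0.0949, edgeR adjusted p = 0.037). The count of calls was 4 without mutant 1 or mutant 2, 4 with DESeq2 and 3 without the filter on low counts. The call of *Acan* was lost without mutant 1, mutant 2 or control 2 (edgeR adjusted p 0.146, 0.107 and 0.173).

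*Col10a1*, the hallmark of this zone, stood at 16584 and 15668 CPM in the mutants and 21272 and 16281 CPM in the controls in hypertrophic CHOs, and the groups overlapped (log2 fold change −0.17, SE 0.118, edgeR adjusted p = 0.276). Without control 2 the log2 fold change was −0.35 and called (edgeR adjusted p = 0.0317), and without control 1 it was 0.035. Among cells past the hypertrophic cut-off alone, 259 and 255 in the mutants and 32 and 37 in the controls, *Col10a1* stood at 10537 and 10512 CPM against 1541 and 3564 CPM, a log2 fold change of 2.07 (edgeR adjusted p = 4.98e-07). In both genotypes, *Col10a1* was thus higher in those cells of the gate that had also passed another zone's cut-off. In the cells past the hypertrophic cut-off alone, *Acan* stood at 2582 and 2711 CPM in the mutants and 1456 and 1239 CPM in the controls. *Col2a1*, at 19631 and 21212 CPM in the mutants and 22218 and 22228 CPM in the controls, was not called (−0.07, edgeR adjusted p = 0.509), and neither was *Col9a3* (−0.12).

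Whether the genotype acted differently on the members in the hypertrophic and columnar zones was tested with an interaction term (17.3% of genes called). For *Matn1* the log2 effect in hypertrophic CHOs minus that in columnar CHOs was −2.45 (edgeR adjusted p = 4.19e-04), for *Col11a2* −0.55 (edgeR adjusted p = 2.48e-04) and for *Acan* 0.50 (edgeR adjusted p = 0.00214). *Col10a1* had a difference of −1.75 that was not called (edgeR adjusted p = 0.0738). Among cells past a single zone cut-off, of which the controls had 32 and 37 in the hypertrophic gate, no member had a difference called lower. There the difference for *Matn1* turned to 0.59 and that for *Col11a2* was −0.059 (edgeR adjusted p = 0.871 and 0.888), while those for *Acan*, 1.28, and *Col9a3*, 0.55, were called higher (edgeR adjusted p = 8.24e-06 and 0.0422). *Col11a2* stood in these cells at 453 and 459 CPM in the mutants and 601 and 776 CPM in the controls in the hypertrophic zone, and at 1708 and 1691 CPM against 2685 and 2508 CPM in the columnar zone.

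**Figure D3:**
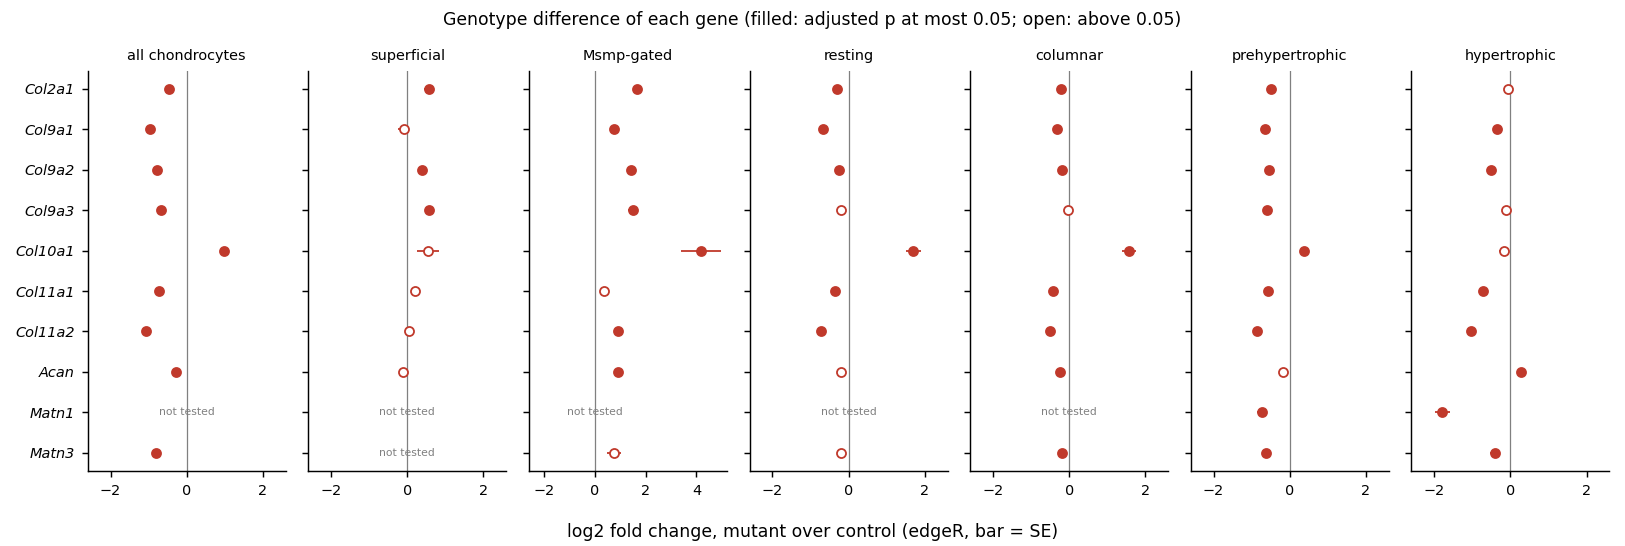
Log2 fold change of mutants over controls for each tested member in all CHOs and in each zone, with bars of 1 standard error; the panel of *Msmp*-gated CHOs has a wider axis. Collagens II, IX and XI lie below 0 in all, resting, columnar and prehypertrophic CHOs and above 0 in *Msmp*-gated CHOs, and *Col10a1* lies above 0 outside the hypertrophic gate.

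Superficial CHOs went the other way in several members. Their gate gene *Prg4* encodes lubricin, which is made at joint surfaces, but the place of these cells in the bone was not measured. They held little cartilage collagen mRNA, 0.872% and 1.06% of UMIs in the mutants and 0.718% and 0.817% in the controls for the 10 genes. There 3 of 8 tested members were called (13.1% of genes called, 7.72% higher), and all 3 were higher in the mutants. *Col2a1* stood at 4311 and 6311 CPM in the mutants and 3606 and 3770.1 CPM in the controls (log2 fold change 0.57, SE 0.118, edgeR adjusted p = 0.00469). *Col9a2* and *Col9a3* had log2 fold changes of 0.39 and 0.56. Of the 10 CHO gate markers, 7 were called higher in these cells as well (median log2 fold change 0.33, beside 0.29 over the 8 members). Summed OB markers stood at 116 and 155 CPM in the mutants and 335 and 347 CPM in the controls in superficial CHOs, and fibroblast markers at 1304 and 1282 CPM against 1548 and 1736 CPM, and their part was not tested. The count was 1 without control 1 and 5 without control 2, and the call of *Col2a1* was lost without mutant 2 (edgeR adjusted p = 0.16).

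In *Msmp*-gated CHOs, 7 of 9 tested members were called and all were higher in the mutants (6.3% of genes called, 3.45% higher). *Col2a1* stood at 12147 and 14034 CPM in the mutants and 3091 and 5376 CPM in the controls (log2 fold change 1.67, SE 0.189, edgeR adjusted p = 6.03e-05). *Col9a2* stood at 375 and 452 CPM in the mutants and 126 and 186 CPM in the controls (1.43) and *Acan* at 1313 and 1419.8 CPM in the mutants and 736 and 777 CPM in the controls (0.90). Both mutants lay above both controls in each. *Col10a1* stood at 86.7 and 571 CPM in the mutants and 24.6 and 14.98 CPM in the controls, so that 1 mutant library held most of it. The CHO gate markers, which hold no member, rose too, with 7 of 10 called higher (median log2 fold change 0.80, beside 0.91 over the 9 members). Summed fibroblast markers stood at 545 and 481 CPM in the mutants and 923 and 956 CPM in the controls. Those of OBs stood at 246 and 183 CPM in the mutants and 421 and 456 CPM in the controls. Within this gate *Msmp* itself stood at 4789 and 3753 CPM in the mutants and 43587 and 14882 CPM in the controls, and *Chrdl2*, an antagonist of bone morphogenetic proteins, had a log2 fold change of 3.87. The gate held 53 to 119 cells per library, and the part of its content in these results was not tested.

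Cell by cell, the members differed in how widely they were detected. A UMI of *Col2a1* was counted in 97.4% to 97.9% of CHOs in every library and one of *Acan* in 96.1% to 97.6%. *Col10a1* was detected in 65.7% and 66.0% of mutant and 33.5% and 31.3% of control CHOs. In ECs, which should lack it, it was detected in 39.3% and 40.3% of mutant and 15.4% and 15.6% of control cells. In barcodes under 100 UMIs, *Col10a1* stood at 3874 and 3872 CPM in the mutants and 1442 and 1353 CPM in the controls, so free RNA differed between genotypes too. In hypertrophic CHOs 91.9% and 90.4% of mutant and 63.6% and 60.5% of control cells held a *Col10a1* UMI. *Matn1* was detected in 26.5% and 22.9% of mutant and 42.6% and 48.1% of control prehypertrophic CHOs, and in 9.44% and 7.88% against 33.0% and 18.5% of hypertrophic CHOs.

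*Col2a1* mRNA is known to give way to *Col10a1* mRNA as CHOs become hypertrophic. More *Col10a1* than *Col2a1* UMIs were counted in 19.5% and 17.8% of mutant CHOs and in 5.67% and 5.05% of control CHOs. Within prehypertrophic CHOs the shares were 27.6% and 24.7% in the mutants and 10.1% and 7.27% in the controls. Within hypertrophic CHOs they were 47.9% and 45.3% against 38.6% and 29.6%. In each of the 3 sets both mutants lay above both controls, and the median depth of prehypertrophic CHOs was 13751 and 14198.5 UMIs in the mutants and 17384.5 and 17947 in the controls.

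Genes that build, modify or break down the same matrix were read from 5 lists of 49 genes in all, of which 41 were tested in all CHOs, with 13 higher and 20 lower in the mutants, beside 62.3% of all genes tested in this gate called and 31% called lower. The counts of the single lists are to be read against the same shares. Of 10 other matrix genes tested, 3 were higher and 4 lower. *Matn4*, another matrilin, rose by 0.40 and *Col27a1*, a fibrillar collagen of cartilage, fell by 0.86 on the log2 scale. *Sox5* and *Sox6*, partners of *Sox9* at cartilage matrix genes, were both lower, *Sox5* by a log2 value of −0.44.

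Of 13 genes of collagen folding and modification, 4 were higher and 6 lower. *P4ha2*, a subunit of collagen prolyl 4-hydroxylase, rose by 1.69 in all CHOs and by 3.16 in hypertrophic CHOs on the log2 scale (edgeR adjusted p 3.27e-15 and 1.76e-07). *Serpinh1*, the collagen chaperone HSP47, fell by 0.69. Of 10 genes of chondroitin sulfate and sulfate supply, 3 were higher and 7 lower. *Chsy1*, a chondroitin synthase, rose by 0.47 and *Chst11*, a chondroitin sulfotransferase, fell by 1.098. Of 6 proteases and inhibitors tested, 3 were higher and 1 lower. *Adamts5*, an aggrecan-cleaving protease, rose by 0.41 in all CHOs and by 1.81 in columnar CHOs, and *Timp1*, a metalloprotease inhibitor, fell by 0.16.

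Outside CHOs, 3 pairs of member and cell type stood at 2 times the level that free RNA gave or more in all 4 libraries. That level was taken as the gene's CPM in barcodes under 100 UMIs times the share at which the CHO markers reached the cell type. OBs held *Col11a1* at 4906 and 4744 CPM in the mutants and 5689 and 5521 CPM in the controls, where free RNA gave 31.0 to 53.8 CPM. They held *Col11a2* at 2215 and 2184 CPM in the mutants and 2233 and 2101 CPM in the controls, against 12.45 to 25.8 CPM from free RNA. Neither gene was called between genotypes in OBs (log2 fold change −0.17, edgeR adjusted p = 0.226, and 0.07, edgeR adjusted p = 0.683), where 4.42% of genes were called. Collagen XI chains are known from bone as well as cartilage. The libraries held 105 and 118 mutant and 606 and 631 control OBs.

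*Col11a1* in bone marrow stromal cells was above the free level in all 4 libraries by less, 1.28 to 1.71 times, at 74.9 and 67.4 CPM in the mutants and 96.4 and 98.7 CPM in the controls.

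*Col2a1* in OBs was the third pair at 2 times or more, at 1122 and 1413 CPM in the mutants and 1134 and 959.9 CPM in the controls, against 137 to 156 CPM from free RNA. A UMI of *Col2a1* was counted in 75.2% to 90.3% of OBs, and in 54.9% to 62.4% of ECs. With each cell thinned to 1000 UMIs, the shares were 31.7% to 44.0% of OBs and 13.5% to 15.4% of ECs. In the mutants, 3 cells held 31.6% and 30.2% of these UMIs in OBs. CHOs held 86.7% and 85.3% of the *Col11a1* UMIs of all kept cells in the mutants and 59.8% in each control, while they held 91.5% to 95.4% of the *Col2a1* UMIs.

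Mural cells of the mutants held *Col10a1* above the free RNA level and those of the controls did not. It stood at 335 and 312 CPM in the mutants and 38.5 and 34.2 CPM in the controls, where free RNA gave 110 and 104 CPM in the mutants and 77.7 and 66.7 CPM in the controls. These free levels rest on the CHO markers. Columnar markers, an alternative chosen after the data were seen, reached mutant mural cells at a larger share of their free level, 4.76% and 4.88%. In control mural cells their share was smaller than that of the CHO markers, at 4.01% and 4.64%. The margin of the mutants over the free level was thus smaller with the columnar markers. The log2 fold change of *Col10a1* in mural cells was 3.16 (SE 0.122, edgeR adjusted p = 5.19e-17), in a gate where 47.4% of genes were called. *Col10a1* was detected in 45.7% and 46.2% of mutant and 16.1% and 14.9% of control mural cells. It thus passed the detection filter through the mutants alone. Without that filter its log2 fold change was 3.22 (edgeR adjusted p = 1.35e-05). Both tested markers of hypertrophic CHOs, *Mmp13* (3.61) and *Vegfa* (0.46), were called higher in mutant mural cells too, and their part was not tested. In the mutants 35.1% and 24.8% of these UMIs lay in 3 cells of each library. *Col10a1* in OBs (145 and 45.6 CPM in the mutants, 14.9 and 15.8 CPM in the controls) and in fibroblasts (851 and 60.5 against 22.0 and 21.7 CPM) was also called higher, but 3 cells held 64.6% and 95.6% of the UMIs of mutant 1 in these gates. Without mutant 1 the log2 fold changes were 1.60 in OBs and 1.53 in fibroblasts, where 2.66% of genes were called. In mutant 2 and both controls, *Col10a1* lay below the free RNA level in OBs and fibroblasts. Free RNA held more *Col10a1* in the mutants too, and its part in these fold changes was not tested. In fibroblasts *Col10a1* passed the detection filter through the mutants alone. Without that filter its log2 fold change there was 4.50 (edgeR adjusted p = 0.395).

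*Acan* in fibroblasts, at 478 and 286 CPM in the mutants and 250.5 and 238 CPM in the controls, depended on the measure of free RNA. Fibroblasts held CHO markers at 22.8% to 52.5% of their free level, so the CHO markers gave 239 to 425 CPM. With the columnar markers in their place, an alternative chosen after the data were seen, *Acan* was at 7.60 to 12.9 times the free level in the 4 libraries. In ECs, *Col10a1* stood at 64.2 and 62.5 CPM in the mutants and 25.1 and 26.7 CPM in the controls, below the free level of 102 and 114 CPM and of 44.5 and 40.2 CPM. Levels of collagen IX genes and *Matn3* in ECs were below the free level in every library, from 5.23 to 19.99 CPM for collagen IX and from 6.32 to 10.8 CPM for *Matn3*. *Matn1* was counted at no more than 0.695 CPM in any of the 6 other cell types.

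**Figure D4:**
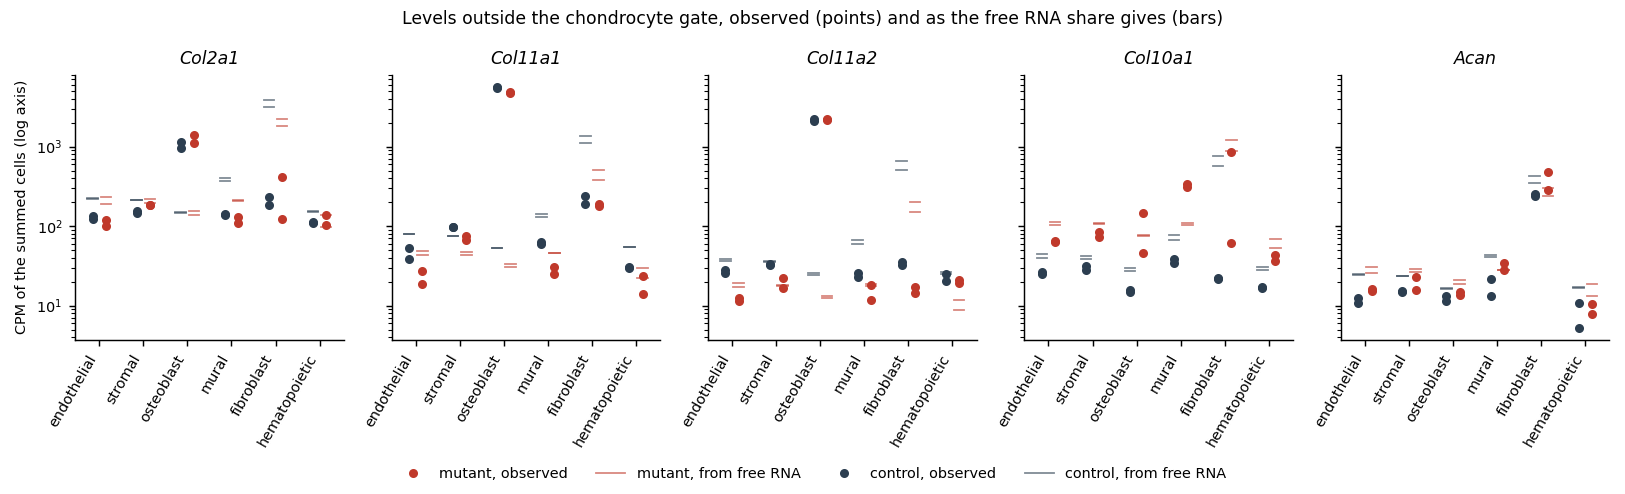
CPM of 5 members in the summed cells of 6 types outside the CHO gate on a log axis, observed (points, 2 mutant libraries in red and 2 control libraries in dark) and as the share of free RNA gives (bars). *Col11a1*, *Col11a2* and *Col2a1* lie above the bars in OBs, and *Col10a1* lies above them in mutant mural cells (335 and 312 CPM); the bars of fibroblasts are high because these cells hold CHO markers.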

How the data were processed

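The libraries were made with 10x Chromium V3 chemistry from metaphyses of femur and tibia that had been digested with collagenase and depleted of lineage-positive, CD45+ and CD117+ cells. The authors trimmed reads with cutadapt 3.5, aligned them with STARsolo 2.7.10a to mm39 and deposited expected counts of every barcode, unfiltered, over exons and introns, in which reads of several genes are shared out by expectation maximization. No normalization had been applied, and 9.09% to 9.95% of the entries are not whole.

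Kept barcodes had 1000 UMIs and 800 features or more, a complexity of 0.8 or more, and no more than 15% of UMIs from mitochondrial and 5% from hemoglobin genes. A cell was given the type whose list had a mean natural log level past the cut-off, with cut-offs set on all libraries together. A cell past several was left out as mixed (778 cells), except that one past the CHO and fibroblast cut-offs took the type it passed by more, and a cell past none was ungated (4174 cells). A CHO past several zone cut-offs entered the zone it passed by most. Scrublet in scanpy 1.11.5 called 1266 doublets, 308 of them CHOs, which were kept unless stated. Clusters came from the Leiden method (leidenalg 0.10.2, 4000 variable genes, 50 components, 15 neighbours, resolution 1).

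Counts were summed per library and gate, rounded and tested with edgeR 4.0.16 (quasi-likelihood, TMM, R 4.3.3) over genes that passed filterByExpr and were counted in 20% or more of the cells of a genotype. Adjusted p-values are from the Benjamini-Hochberg method over all genes of a gate or contrast, and a gene was called at 0.05 or less. Zone contrasts used the sums of all zones with the library as a block. DESeq2 1.42.0, other scaling and filters, other gates, doublet removal, free RNA subtraction, a replicate block and leaving out each library were the alternatives, and 2 more were chosen after seeing the data: cells past a single zone cut-off, and columnar markers as tracer of free RNA. On simulated counts of all CHOs (6564 genes), 78% of 100 genes changed 1.5-fold and 100% of 100 changed 2-fold were recovered, with 5.82% false calls among the calls. The simulation gave all genes the same dispersion and changed a far smaller share of genes than was called in the data. Its rates therefore need not hold for these data, and no zone gate was simulated.

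Shares of a single library carry counting error only. The members and lists were chosen with earlier results of these data known. Named beside the members are the gene with the largest rise and fall of each partner list in all CHOs, and the 3 genes most like *Col2a1*, *Col10a1* and *Matn1*. Values of partner genes in single zones, and gate genes with their genotype change, follow from the same lists. No proteins of the members were at hand.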

Additional observations from a re-analysis of the deposited data

Results flagged for a closer look

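The effect of the genotype differed between hypertrophic and columnar CHOs for 3 members by the interaction test, which called 17.3% of 8109 genes. Whether 3 calls among the members exceed that share was not tested. The log2 effect in hypertrophic minus that in columnar CHOs was −2.45 for *Matn1*, −0.55 for *Col11a2* and 0.50 for *Acan* (edgeR, Benjamini-Hochberg adjusted p 4.19e-04, 2.48e-04 and 0.00214). Among cells past a single zone cut-off, the difference turned to 0.59 for *Matn1* and the call of *Col11a2* was lost, at −0.059 (edgeR adjusted p = 0.888), while *Acan* stayed called. *Matn1* stood at 31.2 and 27.6 CPM in mutant and 129 and 80.3 CPM in control hypertrophic CHOs, and at 20.02 and 29.1 against 20.7 and 12.8 CPM in columnar CHOs. Mutant and control hypertrophic CHOs lay in different clusters and differed in their mitochondrial share, and the part of either in these differences was not tested.

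Ungated cells, which passed no cut-off of any cell type and entered none of the reported gates, held *Col10a1* at a mean of 664 CPM in the mutants. The 4 libraries stood at 526 and 803 CPM in the mutants and 28.9 and 61.0 CPM in the controls. In the mutants 77.9% and 78.2% of these UMIs lay in 149 and 181 cells of cluster 2, the cluster that held most of the mutant hypertrophic CHOs, where the controls had 1 and 0 ungated cells.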

How the results depend on the processing

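Of 157 recomputed counts of called members, 143 stayed within 1.5 times the reported count. With each library left out in turn, the count was 9 in all CHOs and 8 in columnar CHOs every time, 7 to 10 in prehypertrophic, 4 to 7 in hypertrophic, 3 to 5 in resting, 1 to 5 in superficial and 5 to 8 in *Msmp*-gated CHOs, with fewer samples in each fit. Between zones it was 2 to 3 for prehypertrophic over columnar CHOs. Without the filter on low counts, 3 members were called in hypertrophic and 0 in resting CHOs, where edgeR with the filter called 6 and DESeq2 4. DESeq2 called 4 in hypertrophic CHOs. Cells past a single zone cut-off gave 4 calls in hypertrophic and 4 in *Msmp*-gated CHOs and 6 for resting over columnar CHOs, in fewer cells. Deviations of same-numbered libraries from the group means had correlations of −0.04 to 0.08 over 12 gates. Such values cannot tell whether these libraries were handled together, and the main fits did not pair them. With the replicate number as a block, 8 members were called in resting and 6 in hypertrophic CHOs, and the counts of the other 5 sets of CHOs did not move.

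Of 1454 recomputed values of single members, 1324 kept direction and side of the threshold and 26 changed sign. Among cells past a single zone cut-off, in hypertrophic CHOs *Col10a1* became 2.07, *Col9a1* 0.32, *Col9a2* 0.23 and *Col9a3* 0.55, *Col9a3* in columnar CHOs became 0.0055, and *Matn1* in hypertrophic over columnar CHOs −1.32 and *Col10a1* in superficial over columnar CHOs 1.42. The difference of the genotype effect between hypertrophic and columnar CHOs became 0.70 for *Col9a1*, 0.44 for *Col9a2*, 0.55 for *Col9a3*, 0.12 for *Col11a1*, 0.59 for *Matn1* and 0.17 for *Matn3*. In hypertrophic CHOs *Col2a1* became 0.042 without the filter, 0.047 with clusters in place of the gate and 0.012 with a stricter gate, which also gave *Col9a3* 0.011. *Col9a1* in superficial CHOs became 0.13 without doublets and 0.44 with clusters in place of the gate. With each library left out in turn, *Col9a1* in superficial CHOs ran from −0.33 to 0.19, *Col10a1* in superficial CHOs from −0.062 to 1.61, *Col10a1* in hypertrophic CHOs from −0.35 to 0.035, *Col10a1* in superficial over columnar CHOs from −0.80 to 0.0068 and the difference of effects of *Col9a1* from −0.069 to 0.022. The single-zone sums hold fewer cells, and the cause of these changes was not tested.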
